A study of Mus musculus with 6 samples.

Results

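The matricellular proteins are secreted proteins that lie in the extracellular matrix without forming its fibres, and the 10 genes described here, Postn, Spp1, Tnc, Thbs1, Thbs2, Thbs3, Thbs4, Sparc, Sparcl1 and Comp, encode family members known from the healing heart. They were taken by name from the 36047 genes to which the transcripts of the 6 libraries could be joined, by a list drawn up with earlier results of these data known. RNA was sequenced from the infarct area of C57BL6 mice 48 h after ischemia/reperfusion, at 12 weeks of age. The 3 mice of the LGK974 group received LGK974, a small molecule that blocks the acyltransferase Porcupine and with it the secretion of Wnt proteins, and the 3 mice of the DMSO group received the vehicle. All 6 mice thus carried an infarct, and neither an uninjured heart nor an untreated infarct was analysed here. The paper's methods give the mice as female, the artery as the left anterior descending one and the drug as given daily by oral gavage. LGK974 acts in the whole animal, so the comparison concerns Wnt secretion in all cells and not in one cell type of the heart.

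Matricellular proteins bind growth factors, collagens and cell surface receptors, and most of them are scarce in the adult heart and made in large amounts after injury. In an infarct, fibroblasts that are turning into matrix-producing cells secrete periostin (Postn), tenascin-C (Tnc) and osteonectin (Sparc), while macrophages are a known source of osteopontin (Spp1). The thrombospondins Thbs1 and Thbs2 form trimers, and Thbs3, Thbs4 and cartilage oligomeric matrix protein (Comp) form pentamers.

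Postn and Tnc are made in several splice forms that keep or skip whole coding exons, and these exons are shown because the comparison of forms below rests on them. In GRCm38, with GENCODE M21 annotation, the first variable exon of Postn lay at chr3:54380412-54380492 on the plus strand, 81 bases and 27 codons long, as exon 17 of Postn-202, the form with the longest coding sequence. The second lay at chr3:54385671-54385754 on the plus strand, 84 bases and 28 codons long. For Tnc, the coding exon that differed among the complete coding forms of this annotation lay at chr4:63984460-63984732 on the minus strand. It was 273 bases and 91 codons long, as exon 14 of Tnc-203. Forms that are not annotated could not be counted. All 3 exons are coding and hold whole codons, so that a form with the exon differs from one without it by an inserted stretch of protein. They read as follows, 5′ to 3′ on the coding strand.
Postn exon of 81 bases: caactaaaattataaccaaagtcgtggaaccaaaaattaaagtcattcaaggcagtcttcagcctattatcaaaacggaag
Postn exon of 84 bases: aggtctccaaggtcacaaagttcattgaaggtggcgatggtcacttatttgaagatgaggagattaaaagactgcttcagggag
Tnc exon of 273 bases: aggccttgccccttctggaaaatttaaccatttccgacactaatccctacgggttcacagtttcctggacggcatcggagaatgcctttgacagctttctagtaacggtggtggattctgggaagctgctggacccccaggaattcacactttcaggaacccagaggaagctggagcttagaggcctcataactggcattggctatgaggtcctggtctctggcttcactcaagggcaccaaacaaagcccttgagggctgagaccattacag

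Total estimated counts per library ranged from 41579787 to 80398211. Mitochondrial genes held 28.2% of the counts in LGK974 replicate 3 and 39.3% to 53.7% in the other 5 libraries. A set of 1501 olfactory, vomeronasal and taste receptor genes was taken as families of which most are near silent in heart tissue. In DMSO replicate 1 they had a median of 32.1 counts per kilobase, against 3.01 to 11.6 in the other libraries, and 99.3% of them had counts. That library therefore stood apart, and results are also given without it. It was the lowest of the 3 DMSO libraries for 9 of the 10 matricellular genes, and LGK974 replicate 3 was the highest of the LGK974 libraries for 7. Cardiomyocyte marker genes were abundant in all 6 libraries, summing to 39840 to 63097 CPM. CPM are counts scaled to the library total and by the trimmed mean of M values (TMM), and can be compared between libraries for 1 gene.

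Most of these 10 genes were higher in the infarcts of LGK974-treated mice than in those of DMSO-treated mice. Periostin, osteopontin and tenascin-C RNA were 2.95, 3.12 and 3.32 times as abundant, Thbs1 and Thbs4 2.34 and 2.52 times, and Sparc 1.77 times. Thbs2 and Sparcl1, close relatives of Thbs1 and Sparc, overlapped between the groups. Summed over the 10 genes, the LGK974 libraries held 2166, 1741 and 3143 CPM and the DMSO libraries 855, 1228 and 1194 CPM. In edgeR's quasi-likelihood test over 20094 genes, no gene passed an adjusted p of 0.05 (Benjamini-Hochberg), a share of 0.0%, so no matricellular gene passed either. At an unadjusted p under 0.05, 7 of the 10 were higher and 0 lower, against 6.26% of all genes tested that were higher and 7.18% that were lower. For 8 of the 10, every LGK974 library lay above every DMSO library, which held for 10.7% of all genes. By DESeq2, 6 of the 10 passed the adjusted threshold as higher, against 0.852% of the genes for which it gives an adjusted p. Without DMSO replicate 1, 6 of the 10 were higher at an unadjusted p under 0.05, against 7.12% of all genes. The median log2 fold change was 1.02 over the 10 genes and -0.13 over all genes tested.

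**Figure D1:**
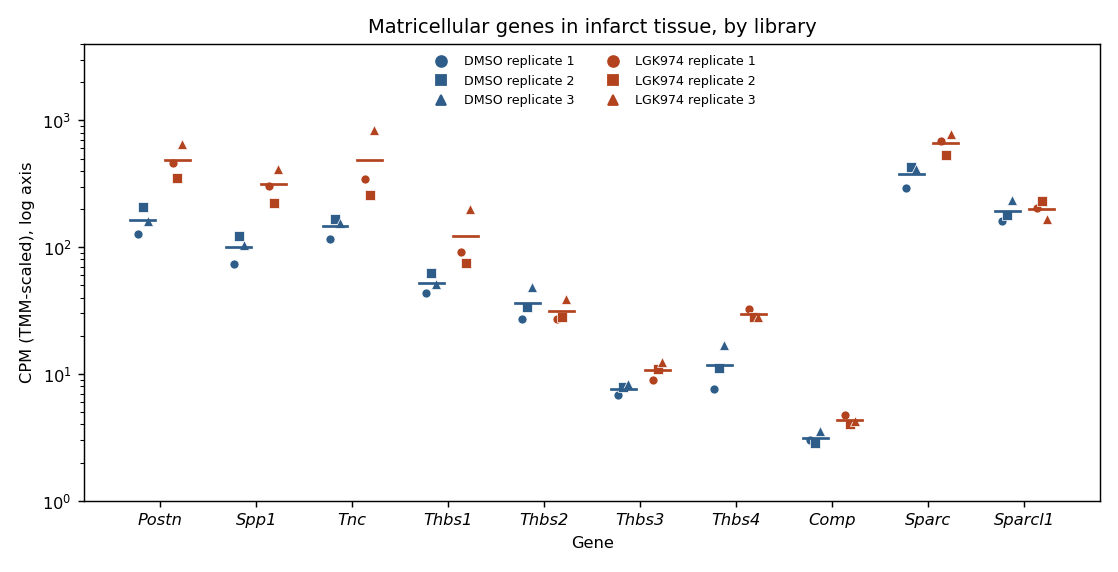
TMM-scaled CPM of the 10 genes on a log axis, with 1 point per library (circles, squares and triangles are replicates 1, 2 and 3) and a bar at the mean of each group. The 3 LGK974 points lie above the 3 DMSO points for all genes shown but Thbs2 and Sparcl1.

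Postn encodes periostin, which binds collagen and tenascin-C and marks fibroblasts that have been activated by injury. The LGK974 libraries held 458, 349 and 652 CPM, and the DMSO libraries 126, 208 and 160 CPM. Every LGK974 library was above every DMSO library, and the lowest LGK974 value was above the highest DMSO value of 208 CPM. The fold change was 2.95, with a 95% interval of 1.82 to 4.79 (log2 fold change 1.56 ± 0.30 SE, n = 3 and 3, edgeR unadjusted p = 0.000927, adjusted p = 0.368), and DESeq2 gave an adjusted p of 5.7e-05. Without DMSO replicate 1 the log2 fold change was 1.42 (edgeR unadjusted p = 0.00116).

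Spp1 encodes osteopontin, a phosphoprotein that binds integrins and CD44. It was at 305, 222 and 410 CPM in the LGK974 libraries and at 73.6, 124 and 103 CPM in the DMSO libraries. The order of the 6 libraries was the same as for Postn, and the groups did not overlap. The fold change was 3.12, with an interval of 1.94 to 5.01 (log2 fold change 1.64 ± 0.29 SE, edgeR unadjusted p = 0.000584, adjusted p = 0.368, DESeq2 adjusted p = 1.8e-05). Without DMSO replicate 1 it was 1.48 on the log2 scale (edgeR unadjusted p = 0.000588). Of the 10 genes Spp1 had the smallest unadjusted p, at place 24 of all genes tested, and Postn was at place 41.

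Tnc encodes tenascin-C, a large many-armed protein that loosens the adhesion of cells to fibronectin. The LGK974 libraries held 347, 259 and 847 CPM, and the DMSO libraries 115, 168 and 155 CPM. LGK974 replicate 3 was far above the other two LGK974 libraries, which were still above all 3 DMSO libraries. The fold change was 3.32, with an interval of 1.63 to 6.76 (log2 fold change 1.73 ± 0.44 SE, edgeR unadjusted p = 0.00477, adjusted p = 0.368, DESeq2 adjusted p = 0.00209). Tnc thus had the highest fold change of the 10 and the widest interval on the log2 scale. Without LGK974 replicate 3 its log2 fold change was 1.12 (edgeR unadjusted p = 0.00653), and without DMSO replicate 1 it was 1.60 (edgeR unadjusted p = 0.00856).

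The thrombospondins divided. Thbs1, whose protein inhibits the growth of blood vessels and can activate latent TGF-β, was at 91.9, 75.6 and 198 CPM in the LGK974 libraries and at 43.5, 62.2 and 50.9 CPM in the DMSO libraries. As with Tnc, LGK974 replicate 3 stood highest, and the groups did not overlap. The fold change was 2.34, with an interval of 1.30 to 4.20 (log2 fold change 1.22 ± 0.36 SE, edgeR unadjusted p = 0.0105, adjusted p = 0.368, DESeq2 adjusted p = 0.0310). It was 0.75 on the log2 scale without LGK974 replicate 3 (edgeR unadjusted p = 0.0207) and 1.12 without DMSO replicate 1 (edgeR unadjusted p = 0.0174).

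Thbs2, the other trimeric thrombospondin, was at 26.9, 28.3 and 38.8 CPM with LGK974 and at 27.3, 33.5 and 48.6 CPM with DMSO. The groups overlapped over most of their range. Its log2 fold change was -0.22 ± 0.25 SE (edgeR unadjusted p = 0.406, adjusted p = 0.662), with an interval of the fold change from 0.576 to 1.28, and it turned to 0.15 when DMSO replicate 3 was left out. The ratio of Thbs1 to Thbs2 counts within a library, which needs no scaling between libraries, was 3.42, 2.68 and 5.10 with LGK974 and 1.59, 1.86 and 1.05 with DMSO. The 2 sets of ratios did not overlap (exact permutation test of log2 ratios, two-sided p = 0.1, the smallest that 3 against 3 libraries allow, adjusted p = 0.25 over 5 ratios chosen after the values were seen).

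Thbs4, a pentameric thrombospondin of muscle, tendon and the stressed heart, was at 32.8, 28.4 and 28.1 CPM with LGK974 and at 7.59, 11.1 and 16.8 CPM with DMSO. Here the LGK974 libraries lay close together and the DMSO libraries spread. The fold change was 2.52, with an interval of 1.61 to 3.93 (log2 fold change 1.33 ± 0.28 SE, edgeR unadjusted p = 0.00147, adjusted p = 0.368, DESeq2 adjusted p = 0.00749), and the log2 fold change without DMSO replicate 1 was 1.11 (edgeR unadjusted p = 0.000858). Against Thbs2 counts in the same library, Thbs4 gave ratios of 1.22, 1.004 and 0.722 with LGK974 and of 0.278, 0.330 and 0.346 with DMSO. These ratios did not overlap between the groups either (exact permutation test, p = 0.1, adjusted p = 0.25).

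Thbs3 and Comp were low. Thbs3, which has a pentameric product like that of Thbs4, was at 8.96, 10.9 and 12.3 CPM with LGK974 and at 6.81, 7.88 and 8.35 CPM with DMSO. The groups were separate but close, and the fold change was 1.40, with an interval of 1.02 to 1.92 (log2 fold change 0.48 ± 0.20 SE, edgeR unadjusted p = 0.0403, adjusted p = 0.368, DESeq2 adjusted p = 0.307). Its unadjusted p was above 0.05 without DMSO replicate 1 (0.0574), DMSO replicate 2 (0.0819), LGK974 replicate 2 (0.0910) or LGK974 replicate 3 (0.107), each by edgeR. Comp, best known from cartilage and tendon, was at 4.71, 4.01 and 4.26 CPM with LGK974 and at 2.99, 2.88 and 3.54 CPM with DMSO. All LGK974 values were above all DMSO values, yet the fold change of 1.38 had an interval of 0.922 to 2.07 (log2 fold change 0.47 ± 0.25 SE, edgeR unadjusted p = 0.103, adjusted p = 0.401). In DMSO replicate 1, counts per kilobase of Comp, Thbs3, Thbs4 and Thbs2 were 1.53, 2.09, 2.94 and 5.74 times the median of the same receptor genes, so their values in that library were the least clear of such counts. For Postn, Spp1 and Tnc the same factor in DMSO replicate 1 was 29.9, 60.5 and 20.1. Markers of cartilage and tendon summed to 4.98 to 10.4 CPM with LGK974 and 5.26 to 11.3 CPM with DMSO. Of these, 0 of 8 passed an edgeR unadjusted p of 0.05, against 6.26% of all genes that were higher and 7.18% that were lower. With 8 genes at these shares, such a count says little. Tnmd, Cilp2 and Matn3 were listed at 0 in at least 1 library.

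Sparc and Sparcl1 encode a pair of related calcium-binding glycoproteins, osteonectin and hevin. Sparc, which takes part in the assembly of collagen, was at 686, 533 and 784 CPM with LGK974 and at 291, 431 and 410 CPM with DMSO. The groups did not overlap, and the fold change was 1.77, with an interval of 1.18 to 2.66 (log2 fold change 0.82 ± 0.25 SE, edgeR unadjusted p = 0.0120, adjusted p = 0.368, DESeq2 adjusted p = 0.0374). Without DMSO replicate 1 the log2 fold change was 0.68 (edgeR unadjusted p = 0.0198). Sparcl1 was at 204, 231 and 168 CPM with LGK974 and at 162, 181 and 237 CPM with DMSO. Its groups overlapped fully, and its log2 fold change of 0.06 ± 0.22 SE (edgeR unadjusted p = 0.806, adjusted p = 0.912) had a fold interval of 0.732 to 1.48. Sparc counts were 3.37, 2.31 and 4.67 times those of Sparcl1 with LGK974 and 1.80, 2.38 and 1.73 times with DMSO. These ratios overlapped through LGK974 replicate 2 and DMSO replicate 2 (exact permutation test, p = 0.2, adjusted p = 0.333).

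**Figure D2:**
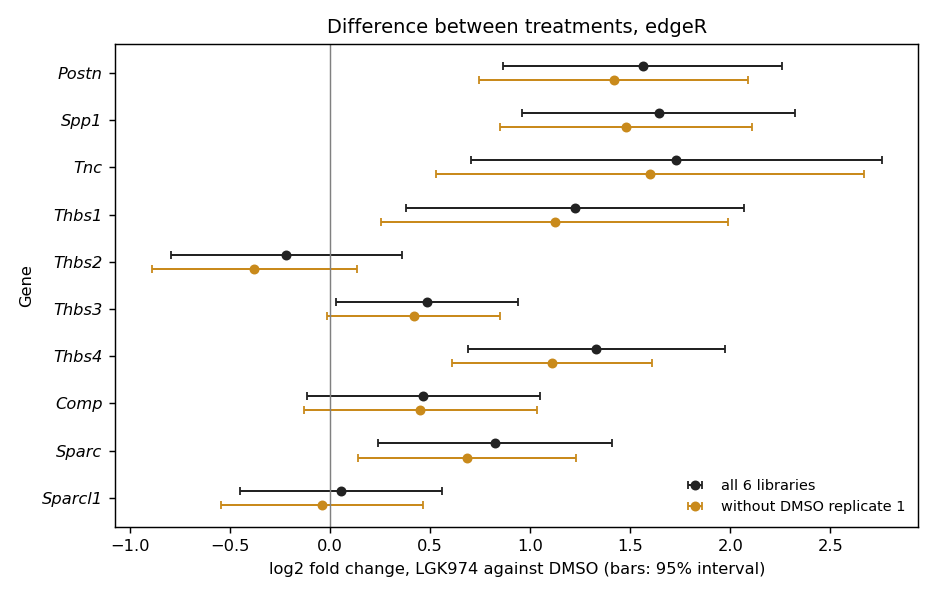
Log2 fold change of each gene, LGK974 against DMSO, from edgeR's quasi-likelihood test with all 6 libraries (black) and without DMSO replicate 1 (yellow), with bars for the 95% interval. With all libraries the intervals of Thbs2, Comp and Sparcl1 include 0, and without DMSO replicate 1 that of Thbs3 does too.

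Ratios among the 3 genes with the highest fold changes were taken within each library in the same way. Spp1 counts were 0.667, 0.634 and 0.629 of Postn counts with LGK974 and 0.585, 0.594 and 0.643 with DMSO. Those ratios overlapped (exact permutation test, p = 0.3, adjusted p = 0.375). Tnc counts were 0.759, 0.742 and 1.30 of Postn counts with LGK974 and 0.914, 0.806 and 0.967 with DMSO. The LGK974 values lay on both sides of the DMSO values (exact permutation test, p = 1, adjusted p = 1), with LGK974 replicate 3 highest.

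TPM, the length-scaled share of a transcript in its library, take the length of each transcript into account and allow the genes to be set against each other within a library. Sparc was first in every library, with a mean of 396 ± 228 TPM (SD, n = 3) in the LGK974 libraries and 170 ± 60.7 TPM in the DMSO libraries. In all 3 LGK974 libraries Spp1 and Postn followed, with means of 305 ± 211 and 241 ± 178 TPM. In the DMSO libraries Spp1 had 71.3 ± 27.6 TPM, Postn 58.5 ± 20.5 TPM and Sparcl1 78.1 ± 27.0 TPM. Postn was below Sparcl1 in 3 of 3 DMSO libraries and above it in 3 of 3 LGK974 libraries. Neither difference of means was larger than the larger SD of the pair. Tnc followed them in the mean of both groups (91.4 ± 92.7 and 18.2 ± 6.31 TPM) and Thbs1 came after Tnc (27.3 ± 25.3 and 8.03 ± 2.72 TPM). Thbs4, Thbs3 and Thbs2 were close to each other, at 12.1, 10.6 and 6.40 TPM in the mean with LGK974 and 3.81, 4.39 and 5.65 TPM with DMSO, and their order was not separated by the spread. Comp was lowest in every library, at 3.83 ± 1.44 and 1.57 ± 0.301 TPM. In the LGK974 group no neighbours in the order of means over all 6 libraries differed by more than the larger SD. In the DMSO group Sparc and Spp1, Sparcl1 and Tnc, Tnc and Thbs1, Thbs1 and Thbs4, and Thbs2 and Comp did. TPM add up to a fixed sum that includes mitochondrial RNA, and the order of the means was the same when mitochondrial genes were left out.

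The genes have 52 annotated transcripts in the deposited files, of which 35 had enough counts to be tested among 58618 transcripts. Of these 35, 15 were higher at an edgeR unadjusted p under 0.05 and 0 lower, against 3.22% of all tested transcripts that were higher. No transcript passed the adjusted threshold of edgeR. For 9 of the 10 genes the transcript with the largest mean share over the 6 libraries was a coding one. Mean shares of the gene's TPM were 98.6% for Thbs1-201, 97.0% for Thbs2-201, 95.3% for Spp1-201, 90.4% for Thbs4-201, 75.4% for Sparcl1-201, 70.2% for Sparc-202 and 60.1% for Comp-201. The Comp value joins unlike groups, as Comp-201 held 48.2% ± 3.23 (SD, n = 3) with LGK974 and 72.0% ± 19.3 with DMSO, and with LGK974 the coding transcript Comp-203 held 51.8% ± 3.23. These are shares of TPM, and by counts Comp-203 had a mean of 0.546 CPM with LGK974 beside 3.85 CPM for Comp-201. Thbs3 differed in that its largest share, 45.1%, was assigned to Thbs3-205, a transcript annotated as processed and without a coding frame. That share of TPM ran from 26.4% to 65.7%, and in DMSO replicate 2 the coding Thbs3-201 held more, 33.2%. By counts Thbs3-205 was below Thbs3-201, with means of 1.18 against 5.15 CPM with LGK974 and 0.624 against 3.28 CPM with DMSO.

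Postn was assigned for the most part to Postn-204, the form without either variable exon, which encodes 783 codons. Its share of Postn TPM was 57.5%, 63.6% and 57.2% with LGK974 and 52.5%, 59.6% and 59.5% with DMSO, and these values overlapped (exact permutation test, p = 0.6). The transcript itself was higher with LGK974 by 1.61 ± 0.32 SE on the log2 scale (edgeR unadjusted p = 0.0015, adjusted p = 0.676, DESeq2 adjusted p = 0.00274). Postn-203, which has only the exon of 81 bases, was higher by 2.05 ± 0.39 SE (edgeR unadjusted p = 0.0013, adjusted p = 0.658, DESeq2 adjusted p = 0.00103). Its share was 9.51%, 6.87% and 7.84% with LGK974 and 6.05%, 3.71% and 8.67% with DMSO, which overlapped (exact permutation test, p = 0.4). Postn-205, annotated as a transcript with a retained intron, had shares of 9.13%, 6.54% and 9.43% with LGK974 and 20.2%, 16.2% and 10.9% with DMSO. Its shares were lower in every LGK974 library than in any DMSO library (exact permutation test, p = 0.1, adjusted p = 0.2 over 10 comparisons of shares), with a difference of -7.40 percentage points of TPM but of -2.25 points when shares were taken from estimated counts.

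Among the 4 complete coding forms of Postn, the exon of 81 bases was kept in 15.6%, 12.9% and 11.6% of the TPM with LGK974 and in 16.0%, 9.66% and 16.9% with DMSO. The exon of 84 bases was kept in 7.69%, 11.5% and 7.06% with LGK974 and in 10.6%, 13.2% and 10.6% with DMSO. Both sets overlapped between the groups (exact permutation tests, p = 0.8 and p = 0.3), and the form with neither exon made up 80.3% ± 1.32 (SD, n = 3) with LGK974 and 80.0% ± 1.86 with DMSO (exact permutation test, p = 0.9). Postn-202, the form of 838 codons with both exons, was chosen for mention after its values were seen. It made up 2.45%, 4.23% and 0.395% of the complete forms with LGK974 and 6.75%, 4.57% and 5.48% with DMSO, a pair of ranges that just did not overlap (exact permutation test, p = 0.1, adjusted p = 0.2). These shares rest on 120 to 711 estimated counts per library, and as an amount Postn-202 differed by 0.17 ± 0.59 SE on the log2 scale (edgeR unadjusted p = 0.783).

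Tnc was assigned to Tnc-204, of 2019 codons, and to Tnc-203, which has the exon of 273 bases and 2110 codons. Tnc-203 held 9.85%, 12.2% and 10.5% of Tnc TPM with LGK974 and 18.5%, 17.3% and 13.3% with DMSO. Its share was lower in every LGK974 library than in any DMSO library, with a difference of -5.51 percentage points (-7.03 to -4.43 points with 1 library left out, exact permutation test, p = 0.1, adjusted p = 0.2). Tnc-204 held 88.7%, 85.1% and 87.5% with LGK974 and 80.5%, 81.4% and 84.8% with DMSO, again without overlap (exact permutation test, p = 0.1, adjusted p = 0.2). Both forms were higher in amount with LGK974, Tnc-204 by 1.84 ± 0.47 SE (edgeR unadjusted p = 0.00607, DESeq2 adjusted p = 0.0258) and Tnc-203 by 1.16 ± 0.42 SE on the log2 scale (edgeR unadjusted p = 0.0295, DESeq2 adjusted p = 0.358). With 3 libraries a group, a permutation test of shares cannot go below p = 0.1. DMSO replicate 1, the library with the most counts in receptor genes, had the highest share of Tnc-203, of Postn-205 and of Postn-202, and the part of such counts in these shares was not tested.

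**Figure D3:**
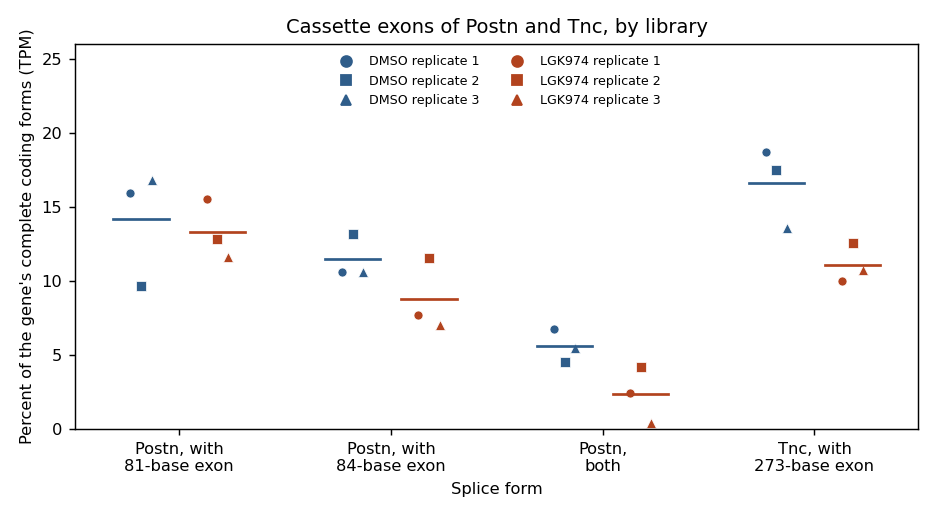
Share of TPM among the complete coding forms of Postn and Tnc that keeps the named exon or, for Postn, both exons, with 1 point per library and a bar at the mean of each group. The Tnc exon of 273 bases was kept in 11.1% ± 1.32 (SD, n = 3) with LGK974 and 16.6% ± 2.68 with DMSO, and the points of each Postn exon taken alone overlap.

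The letters before the start sites are shown for the 3 genes with the highest fold changes, with matches of TATAAA in capitals, from RefSeq sequences of GRCm38.p6. The windows are the 250 bases before the start, at chr3:54360857-54361106 on the plus strand for Postn, chr5:104434861-104435110 on the plus strand for Spp1 and chr4:64047016-64047265 on the minus strand for Tnc.
Postn: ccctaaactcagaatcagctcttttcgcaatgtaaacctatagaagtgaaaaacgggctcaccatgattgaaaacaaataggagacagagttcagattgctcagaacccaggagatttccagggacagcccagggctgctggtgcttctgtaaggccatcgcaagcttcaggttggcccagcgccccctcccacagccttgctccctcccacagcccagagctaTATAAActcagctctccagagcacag
Spp1: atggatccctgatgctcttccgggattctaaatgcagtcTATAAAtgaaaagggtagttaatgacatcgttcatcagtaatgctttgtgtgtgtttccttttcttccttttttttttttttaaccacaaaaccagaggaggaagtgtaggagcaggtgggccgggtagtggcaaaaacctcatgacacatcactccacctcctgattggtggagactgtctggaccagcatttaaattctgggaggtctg
Tnc: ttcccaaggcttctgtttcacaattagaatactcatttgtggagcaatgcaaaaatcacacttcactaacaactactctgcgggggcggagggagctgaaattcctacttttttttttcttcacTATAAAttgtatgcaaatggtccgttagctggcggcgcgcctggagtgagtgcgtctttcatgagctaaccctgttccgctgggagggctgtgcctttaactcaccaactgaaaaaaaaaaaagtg

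The Postn match lay 26 bases before the start, the Tnc match 126 bases and the Spp1 match 211 bases before it. Of 32851 mouse windows of this length 12.4% held TATAAA on either strand, and of the 10 windows that 7 of the 10 genes had, 5 windows of 4 genes did. The Tnc windows overlap, and the same match was counted in each, 205 bases before the start of the second. The fourth gene was Thbs2, whose groups overlapped, with a match 126 bases before its start, and the second windows of Postn and Spp1 held none. The TCF/LEF letters CTTTGAT, at which the nuclear arm of Wnt signalling is read, were in 3.21% of all windows on either strand, and the AP-1 letters TGANTCA in 6.75%. Neither was found in the 10 windows. The TEAD letters GGAATG, in 12.6% of all windows, were found in the Thbs4 window, as 2 matches that share bases. A match of letters in a window is a description and no measure of binding.

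Other matricellular genes and the receptors of the family were taken from lists. The list of 20 other matricellular genes (CCN proteins, further SPARC relatives, small integrin-binding glycoproteins and the like) had 17 members with enough counts, of which 4 were higher and 3 lower at an edgeR unadjusted p under 0.05, against 6.26% and 7.18% of all genes. Its median log2 fold change was -0.40. Ccn2, a connective tissue growth factor, was at 391, 268 and 447 CPM with LGK974 and at 146, 239 and 167 CPM with DMSO, without overlap (log2 fold change 1.004 ± 0.277 SE, edgeR unadjusted p = 0.00713, DESeq2 adjusted p = 0.0206). Fstl1, a secreted follistatin-like relative of Sparc, was at 292, 213 and 317 CPM against 145, 178 and 152 CPM (0.79 ± 0.21 SE, edgeR unadjusted p = 0.00605, DESeq2 adjusted p = 0.0247). Tgfbi, which shares its repeated domains with Postn, was at 51.5, 45.6 and 111 CPM against 34.0, 31.8 and 36.7 CPM (1.02 ± 0.33 SE, edgeR unadjusted p = 0.0157, DESeq2 adjusted p = 0.0700). Ccn1 had overlapping groups, with 41.9, 30.4 and 73.8 CPM against 21.1, 30.6 and 27.6 CPM (0.88 ± 0.32 SE, edgeR unadjusted p = 0.0268). The 3 that were lower were Spock1, Spock2 and Spock3, proteoglycans related to Sparc, named although they fell outside the first 4 of the list. Spock1 and Spock3 were highest in DMSO replicate 1. Without that library 1 gene of the list was lower at this threshold, against 721 of 18547 genes tested. Without LGK974 replicate 3, 4 genes of the list were under it in place of 7, 3 of them higher, against 821 of 19712 genes tested, 636 of them higher. Ccn6, Ibsp, Mepe and Dspp were listed at 0 in at least 1 library.

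Of 22 receptor genes, all tested, 6 were higher and 1 lower at an edgeR unadjusted p under 0.05, against 6.26% and 7.18% of all genes, with a median log2 fold change of 0.18. Cd44, a receptor for hyaluronan and osteopontin that leukocytes also carry, was at 93.0, 76.3 and 83.8 CPM with LGK974 and at 36.7, 48.9 and 48.8 CPM with DMSO. Its groups were well apart, with a fold change of 1.88 and an interval of 1.41 to 2.51 (log2 fold change 0.91 ± 0.18 SE, edgeR unadjusted p = 0.000989, adjusted p = 0.368, DESeq2 adjusted p = 0.00592). Itga9, an integrin chain that binds tenascin-C and osteopontin, was at 34.5, 34.9 and 48.9 CPM against 21.1, 30.7 and 24.1 CPM (0.64 ± 0.21 SE, edgeR unadjusted p = 0.0162). Itga5, the fibronectin receptor chain, was at 192, 142 and 199 CPM against 87.6, 133 and 118 CPM (0.65 ± 0.22 SE, edgeR unadjusted p = 0.0199). Stab1, a scavenger receptor of macrophages that takes up SPARC protein, was at 181, 156 and 204 CPM against 77.9, 144 and 110 CPM (0.70 ± 0.25 SE, edgeR unadjusted p = 0.0232). The gene that was lower was Ptprz1, a receptor phosphatase that binds tenascins, at 2.14, 1.32 and 1.46 CPM against 8.90, 4.12 and 1.45 CPM, highest in DMSO replicate 1. For Itga9, Itga5 and Stab1 DESeq2 gave adjusted p-values of 0.139, 0.113 and 0.115. The number of receptor genes under an edgeR unadjusted p of 0.05 changed with the libraries used. It was 4 without DMSO replicate 1, against 2041 of 18547 genes tested. Without LGK974 replicate 1 it was 2, against 1526 of 18775, and without LGK974 replicate 3 it was 1, against 821 of 19712. In the last 2 settings the receptor genes were thus near the share of all genes.

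**Figure D4:**
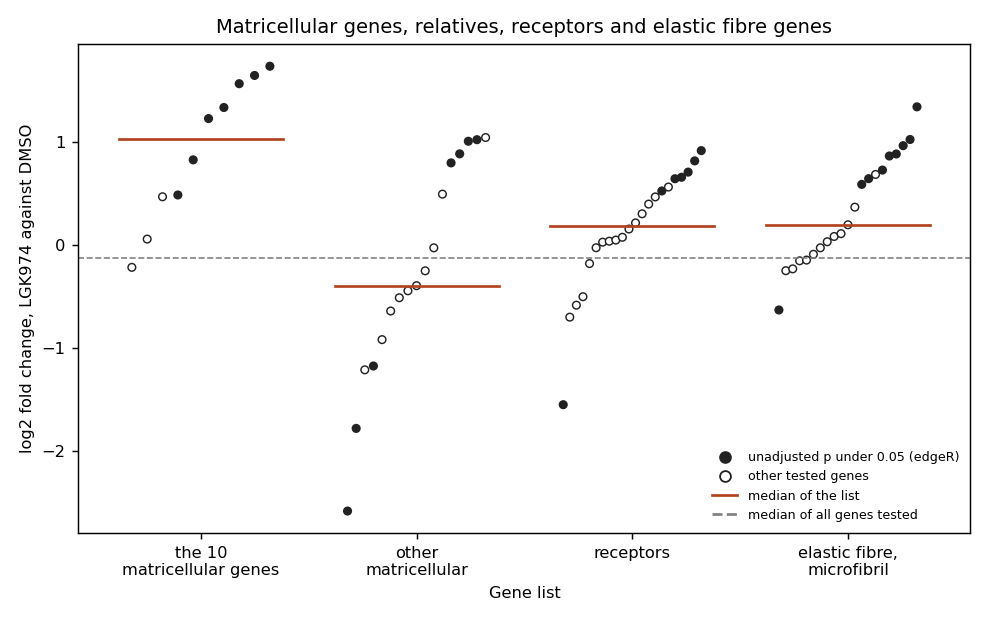
Log2 fold change, LGK974 against DMSO, of every tested gene of 4 lists, with 1 point per gene in ascending order, filled where the unadjusted p of edgeR was under 0.05. Red lines mark the median of each list (1.02, -0.40, 0.18 and 0.19 from left to right) and the dashed line the median of all genes tested, -0.13.

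Marker genes were counted for cells that are known to make these proteins and for the other cells of the tissue. Of 8 genes of activated fibroblasts other than the 10, 6 were higher at an edgeR unadjusted p under 0.05, against 6.26% of all genes, among them Fn1, Col12a1 and Col8a1, and their summed level was 1444, 1003 and 2536 CPM with LGK974 and 462, 677 and 631 CPM with DMSO. Fap, at a log2 fold change of -0.21, was the 1 of these 8 with a negative value, and 4 of the 8 overlapped between the groups. Of 12 general fibroblast markers 3 were higher at this p, against 6.26% of all genes, and 3 had negative fold changes. Their sums were 2379 to 3456 CPM and 1385 to 2223 CPM. Col1a1 alone was at 1051, 783 and 1961 CPM with LGK974 and at 459, 652 and 630 CPM with DMSO. The 3 that were higher were Mfap5, Col1a1 and Col1a2. Every LGK974 library was above every DMSO library for 4 of the 12. Dcn, Pdgfra and Pi16 were among those that overlapped, at log2 fold changes of 0.005, 0.13 and -0.07. Of 14 macrophage and monocyte markers 12 were higher, again against 6.26% of all genes, with sums of 773, 744 and 846 CPM against 313, 480 and 401 CPM. None of the 14 was listed at 0 in any library. By flow cytometry at the same time point, the paper reports fewer leukocytes, myeloid cells and inflammatory monocytes with LGK974. For macrophages it reports a trend without significance. Those are cell numbers in other animals, from whole hearts, and the values here are RNA of the infarct area. LGK974 replicate 3 had the highest sums of activated fibroblast markers and of macrophage and monocyte markers, and DMSO replicate 1 the lowest. Single markers did not all follow these sums. LGK974 replicate 3 was the lowest LGK974 library for Cd68 (71.7 CPM), Adgre1 (24.7 CPM), Gpnmb (48.0 CPM), Mrc1 (94.2 CPM), C1qb (53.3 CPM) and Fap (6.09 CPM). It was the highest for Lyz2, Ptprc, Cd14, Fcgr1, Csf1r, Itgam, Ccr2 and C1qc, and for the activated fibroblast markers other than Fap. Platelet markers, of interest because platelets carry thrombospondin 1, summed to 41.6 to 47.2 CPM with LGK974 and 23.8 to 42.6 CPM with DMSO. At this p 1 of the 7 tested was lower and 0 higher, against 7.18% and 6.26% of all genes. Neutrophil markers summed to 33.0 to 48.1 CPM and 43.5 to 81.8 CPM, with Retnlg and Ly6g listed at 0 in at least 1 library. Of the 5 tested, 1 was lower and 0 higher, against the same shares of all genes. It was Cxcr2 (edgeR unadjusted p = 0.0459, and 0.195 without DMSO replicate 1). The sums of endothelial markers (745 to 772 and 612 to 903 CPM), mural cell markers (573 to 743 and 573 to 894 CPM) and cardiomyocyte markers (39840 to 56711 and 45360 to 63097 CPM) overlapped between the groups. Of the 11 cardiomyocyte markers 10 had negative log2 fold changes, with a median of -0.42 against -0.13 over all genes. Actc1, at 0.86, was the 1 with a positive value and the 1 with an edgeR unadjusted p under 0.05. Without DMSO replicate 1 their median was -0.54, with 2 lower and 1 higher at this threshold, against 721 and 1320 of 18547 genes tested. In tissue RNA, more cells of a type and more RNA per cell cannot be told apart, and the part of cell composition in the differences of the matricellular genes was not tested.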

How the data were processed

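RNA sequencing libraries of infarct tissue from 3 LGK974-treated and 3 DMSO-treated mice were analysed. Per the paper's methods, ribosomal RNA was depleted, a capture kit was used and Kallisto quantified Ensembl transcripts of GRCm38, the build also named in the submitters' processing notes. The version of Kallisto was not given in the sources used here. For each of 118489 transcripts the authors deposited an estimated count, which need not be whole, and a TPM value scaled to transcript length and library sum. Of these transcripts 98.6% were joined by identifier to GENCODE M21 genes, then added up by gene and rounded.

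Genes or transcripts with at least 10 counts in at least 3 libraries were tested with edgeR 4.0.16 (TMM, quasi-likelihood F test, Benjamini-Hochberg adjustment over all tested) in R 4.3.3. DESeq2 1.42.0, the tool of the study, was an alternative. SE is the log2 fold change divided by the root of F, and 95% intervals use the t distribution with the degrees of freedom of the test. Shares of TPM and ratios of counts were compared by exact two-sided permutation tests (SciPy 1.17.1), with Benjamini-Hochberg adjustment. The fits were tested on simulated data, and the check they had to pass was set at a small spread. It does not show how many true differences they find at the spread of these libraries. Kallisto divides reads that match several transcripts, so shares of forms are estimates. Without a stated strand setting, exon bases shared with opposite-strand genes cannot be told apart, which concerns 318 bases of Thbs3 with Mtx1, 208 of Thbs1 with Gm29233 and 176 of Tnc with 8030451A03Rik. On the same strand 309 bases of Spp1 are shared with Gm42793.

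Groups came from the sample labels. Each library is labelled as 1 animal's sample, and p-values measure the spread between these samples. The 10 genes and all lists were chosen with earlier results of these data known. Named were all 10 genes, of Postn and Tnc every transcript with at least 5% of the gene's TPM, of the other genes the transcript with the largest share, and of each other list up to 4 genes with the smallest p. Alternatives were other scalings, filters and tools, a replicate block, protein-coding genes only, no mitochondrial genes, counts scaled from TPM, and leaving out each library.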

Additional observations from a re-analysis of the deposited data

How the results depend on the processing

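The log2 fold changes of Postn, Spp1, Tnc, Thbs1, Thbs3, Thbs4, Comp and Sparc kept their direction under all 14 alternatives. With 1 library left out they ranged from 1.36 to 1.81 for Postn, 1.46 to 1.89 for Spp1, 1.12 to 2.08 for Tnc, 0.75 to 1.53 for Thbs1, 1.11 to 1.77 for Thbs4 and 0.68 to 1.02 for Sparc, and the number of the 10 genes with an unadjusted p under 0.05 was 6 to 7. Thbs2 turned to 0.15 without DMSO replicate 3, and Sparcl1 to -0.0002 without LGK974 replicate 2 and to -0.04 without DMSO replicate 1, with ranges of -0.38 to 0.15 and -0.0423 to 0.34. Over all genes, edgeR called 0 at an adjusted p under 0.05 and 2699 at an unadjusted p under 0.05. DESeq2 called 289 after adjustment (201 higher, 88 lower), edgeR without the filter on low counts 1206 (305 higher, 901 lower), and edgeR with 1 library left out 0 to 2. The cause of these differences was not tested. Leaving out 1 library gave 4 to 7 of the other matricellular genes and 1 to 9 of the receptor genes at an unadjusted p under 0.05. Over all genes tested these settings gave 821 to 4628. With the replicate number as a block, edgeR called 0 genes after adjustment and 3312 before it, and 6 of the 10 genes had an unadjusted p under 0.05, with Thbs3 at 0.0540. Deviations of libraries with the same number correlated at 0.50, -0.08 and 0.30 over genes, and those with different numbers at -0.53 to 0.19. LGK974 replicates 1 and 3 correlated best with the DMSO library of their own number, and LGK974 replicate 2 with DMSO replicate 3 (0.14). Whether the numbers pair the samples cannot be told from these values. The share of Postn-205 differed by -2.25 points from estimated counts and -7.40 points from TPM. The share of Postn-204 differed by 2.20 points, by -0.03 points over protein-coding transcripts only and by -0.13 points without DMSO replicate 1. Shares over the complete coding forms only, chosen after seeing the data, changed no direction. The number of libraries, 3 a group, limits the exact tests to p = 0.1.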

Other observations

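Elastic fibres and their microfibrils, the stretchable part of the matrix, were described by a list of 21 genes, all tested. At an edgeR unadjusted p under 0.05, 8 were higher and 1 lower with LGK974, against 6.26% and 7.18% of all genes, with a median log2 fold change of 0.19, and 9 had every LGK974 library above every DMSO library, against 10.7% of all genes. Emilin1, a glycoprotein of elastic fibres, was at 122, 108 and 156 CPM with LGK974 and at 52.1, 77.5 and 68.7 CPM with DMSO (log2 fold change 0.96 ± 0.22 SE, edgeR unadjusted p = 0.00254, DESeq2 adjusted p = 0.0100). Ltbp2, a microfibril protein related to those that hold latent TGF-β, was at 48.9, 32.7 and 79.1 CPM against 18.3, 22.7 and 22.5 CPM (1.34 ± 0.31 SE, edgeR unadjusted p = 0.00267, DESeq2 adjusted p = 0.00696). Mfap5, also on the list of fibroblast markers, was at 80.2, 72.8 and 58.3 CPM against 32.9, 47.8 and 35.7 CPM (0.86 ± 0.20 SE, edgeR unadjusted p = 0.00319, DESeq2 adjusted p = 0.0260). Mfap4 was at 31.2, 32.5 and 32.8 CPM against 9.63, 18.8 and 19.1 CPM (1.02 ± 0.26 SE, edgeR unadjusted p = 0.00453, DESeq2 adjusted p = 0.0459). The gene that was lower was Hmcn1, a large matrix protein of the hemicentin family, named outside the first 4, at 24.6, 27.9 and 21.6 CPM against 39.5, 31.6 and 43.7 CPM (-0.63 ± 0.18 SE, edgeR unadjusted p = 0.00781, DESeq2 adjusted p = 0.137). Without DMSO replicate 1, 7 of the list were higher and 1 lower, against 1320 and 721 of 18547 genes tested. No gene of the list passed edgeR's adjusted threshold.

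The coding transcript Comp-203 was assigned 51.0%, 55.4% and 49.1% of Comp TPM with LGK974 and 13.97%, 15.6% and 6.27% with DMSO, the largest gap in shares among transcripts of the 10 genes (exact permutation test, p = 0.1), and was chosen after its values were seen. At 0.48 to 0.59 CPM against 0.02 to 0.10 CPM it rests on few counts (edgeR unadjusted p = 0.0150, DESeq2 adjusted p = 0.270).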
